A study of Bos taurus with 13 samples.

Results

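The abundance of bta-miR-122 was followed in the extracellular vesicles (EVs) of bovine follicular fluid. It was picked by its name in the files, where it was listed for every library, and it is 1 of the 311 miRNAs listed for any group and of the 262 listed for all groups. EVs are membrane-bound particles released by cells, and follicular fluid fills the antrum of the follicle around the oocyte. Small RNA was sequenced from 13 pools of fluid, 1 library per pool, taken by ovum pick-up from large follicles of Holstein Friesian cows after calving and of heifers, which have not calved. The study asked how the energy balance of the cow relates to the miRNAs carried by these vesicles.

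All cows and heifers were female, their ages were not given in the sources used here, and no agent is named in the sample labels. Transient cows (TCs) had a negative energy balance at weeks 5 and 6 after calving (labelled Early negative, 3 pools from 11 cows) and a positive one at weeks 9 and 10 (Late positive, 3 pools from 7 cows). Always negative cows (ANCs) and always positive cows (APCs) stayed in 1 state over the whole period and were sampled at weeks 5 and 6, with 2 pools from 2 cows in each group. Heifers (labelled Positive) were sampled over several weeks, with 3 pools from 8 animals. The sources used here do not give which animals went into which pool, so the p-values measure the spread between pools, which may be partly technical. The study discarded fluid from cystic ovaries or contaminated with blood, and cells, apoptotic bodies and larger vesicles were removed by centrifugation before the EVs were pelleted.

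miR-122 is the dominant miRNA of hepatocytes, where it represses many mRNAs and is needed for normal cholesterol and fatty acid metabolism. It circulates in blood plasma and is widely used there as a sign of liver injury. The pools hold RNA from an unknown mixture of cells, so fewer vesicles of 1 source and less of the miRNA per vesicle cannot be told apart. In the RefSeq annotation of assembly ARS-UCD2.0, the gene MIR122 lies within no other gene. The nearest annotated genes are a lncRNA, LOC107131798, and a pseudogene, LOC781927, and the nearest protein-coding genes are NEDD4L, a ubiquitin ligase, and ALPK2, a kinase.

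Among the marker miRNAs of liver, 6 of 8 names were listed for all groups, namely miR-122, miR-192, miR-194, miR-215, miR-148a and miR-101. miR-802 and miR-885, the other 2 names, were not among the listed miRNAs. Of the 6, miR-192, miR-194 and miR-215 are also abundant in intestine and kidney and miR-148a and miR-101 in many tissues, so miR-122 was the only liver-specific name that was measured. Markers of blood cells were present in the same pools (erythroid names at 130.7 to 10962.4 CPM in sum, leukocyte names at 744.8 to 6076.6 CPM). These data hold no sample of plasma or liver, and the tissue that released the miR-122 was not tested.

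The deposited values are CPM (reads of a miRNA scaled to a common library size) adjusted with TMM, the trimmed mean of M-values, a scaling that assumes that most miRNAs do not change. Whole reads could be recovered from the steps of the values, giving 145030 to 421435 reads of listed miRNAs per library with a median of 327359. In 6 of the 13 libraries few values were low, so the step of 1 read, and the reads, shares and intervals that rest on it, are less well checked there. The libraries were alike, since the mean correlation of a library with the others lay between 0.928 and 0.957. The levels below are CPM from these reads on 1 TMM scale over the 262 miRNAs listed for all groups, and 3 reads stood at 7.3 to 20.1 CPM. In all, 20792 of 3993766 recovered reads were from miR-122, and its level was far above this floor in every pool. Intervals of single pools are exact 95% intervals that cover counting error only.

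In TCs at weeks 5 and 6, bta-miR-122 was at 4212, 5712 and 4440 CPM in replicates 1, 2 and 3. In TCs at weeks 9 and 10, the 3 pools were at 2682, 2876 and 4185 CPM. Heifers were at 17623, 11851 and 5369 CPM, and their lowest pool lay below the highest pool of the TCs at weeks 5 and 6. Replicate 1 of the ANCs held 83 reads, or 328.8 CPM (interval 261.9 to 407.6), whereas replicate 2 was at 2926 CPM. The APCs differed likewise, with 631.3 CPM (interval 543.4 to 729.4) in replicate 1 and 5858 CPM in replicate 2. The ANCs and APCs therefore each held 1 low pool and 1 pool within or near the range of the TCs, and the 2 highest pools of the series were both from heifers.

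**Figure D1:**
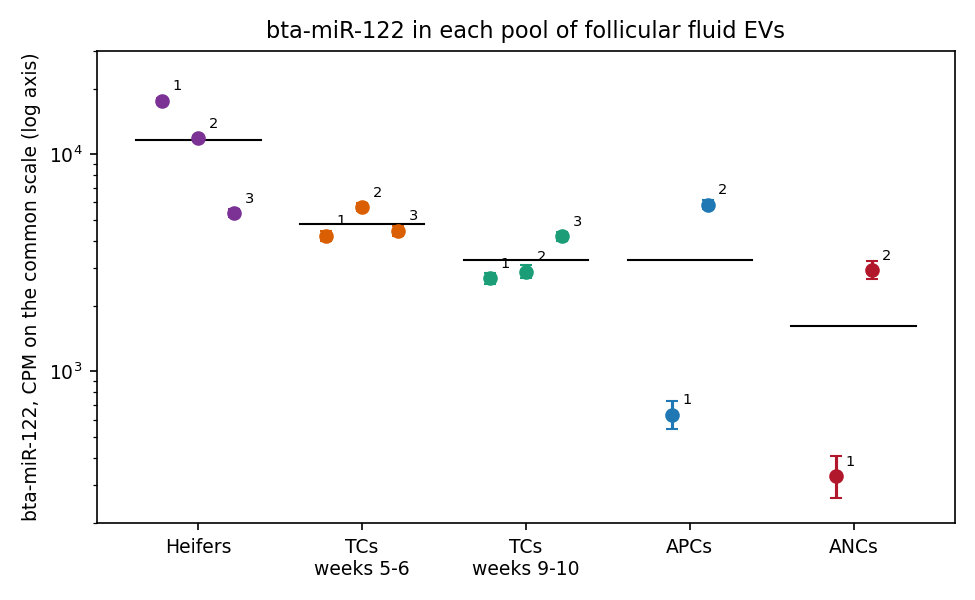
Level of bta-miR-122 in each of the 13 pools, in CPM on a log axis. Points are pools with their replicate number, vertical bars are exact 95% counting intervals, and black lines are group means. Heifer replicates 1 and 2 are highest (17623 and 11851 CPM), and replicate 1 of the ANCs (328.8 CPM) and of the APCs (631.3 CPM) are lowest.

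As a share of the reads of a pool, miR-122 went from 0.0374% in replicate 1 of the ANCs (exact binomial interval 0.0298% to 0.0463%) to 1.94% in replicate 1 of the heifers. It ranked 15th, 17th and 40th among the 262 miRNAs in the heifers. In the TCs it ranked between 36th and 57th, and in the low pools of the ANCs and APCs 117th and 100th. By its mean over the 13 pools (5284 CPM) it was 40th, between bta-miR-378 at 5401 CPM and bta-miR-342 at 5168 CPM. miR-122 was therefore a common miRNA of these vesicles in most pools and a minor one in 2.

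From high to low, the group means were 11614 ± 6130 CPM (SD, n = 3) in heifers and 4788 ± 809 CPM (SD, n = 3) in TCs at weeks 5 and 6. TCs at weeks 9 and 10 followed at 3248 ± 817 CPM (SD, n = 3), then APCs at 3245 ± 3696 CPM (SD, n = 2) and ANCs at 1627 ± 1836 CPM (SD, n = 2). The pools of each group overlapped those of the next except between the TC times, where the lowest pool at weeks 5 and 6 (4212 CPM) was just above the highest at weeks 9 and 10 (4185 CPM). On the scale of that comparison alone these groups overlapped too, so no neighbours in this order were clearly apart. The means of the TCs at weeks 9 and 10 and of the APCs were equal within their spread, and the APCs fell to 2363 CPM when the libraries were scaled to total reads.

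Within groups, the highest pool exceeded the lowest by 1.36 times in TCs at weeks 5 and 6, 1.56 times in TCs at weeks 9 and 10 and 3.28 times in heifers. In ANCs and APCs the factor was 8.9 and 9.28. Counting error alone would give an SD of 0.026 to 0.122 on the log2 scale, and the SD between pools was 0.23 to 2.27. Over all groups, the SD of miR-122 within groups was 1.22 on the log2 scale, against a median of 0.57 over the 247 miRNAs that passed the filter on low counts. That placed it 12th of 247, and 4th among the 83 most abundant, whose median SD was 0.46. miR-122 was thus among the more variable of the abundant miRNAs, and its spread was largest in the ANCs and APCs.

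limma was run on log2(CPM + 5) for each pair of groups. A miRNA was called differentially expressed (DE) when its log2 fold change reached 1 in either direction, its p-value was under 0.05 and its adjusted p-value did not exceed 0.25. Each comparison has its own TMM scale, and a log2 fold change is the mean of the first group minus that of the second. The heifers are the common control of 5 comparisons and the TCs at weeks 5 and 6 of 3, so these results are not independent of each other. miR-122 was also compared with an exact two-sided permutation test of the pools.

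miR-122 was lower in ANCs than in heifers, and it passed the thresholds. The log2 fold change was -3.31 (SE 0.89, 95% interval -5.36 to -1.25), which is a 9.89-fold lower level. The adjusted p-value of limma was 0.0971. Both ANC pools lay below all 3 heifer pools, and the exact permutation p-value was 0.2, the smallest that 2 pools against 3 allow. In this comparison 18.6% of the miRNAs tested were called (12.1% lower in ANCs), and 47.4% had groups that did not overlap. By the size of the decrease, miR-122 was 4th. The call was lost without replicate 1 of the ANCs (log2 fold change -1.66), a fit with 1 ANC pool left and so no spread in that group. It was also lost without replicate 1 of the heifers (-2.95, adjusted p-value 0.351), where 6 miRNAs were called. The 40 calls of the whole comparison became 17 without heifer replicate 2 and 54 without heifer replicate 3, and with the replicate number as a block they were 65, with miR-122 at -3.75.

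In APCs, the log2 fold change against heifers was -2.27 (SE 0.93, 95% interval -4.48 to -0.06), with an adjusted limma p-value of 0.292, and miR-122 was not called. Replicate 2 of the APCs lay above the lowest heifer pool, and the exact permutation p-value was 0.4. Of 233 miRNAs, 12.4% were called here. This result depended on the scaling: with total reads the log2 fold change was -2.86 and the adjusted p-value 0.0864, a call, while the median of all miRNAs moved from 0.03 to -0.54. Relative to that median, miR-122 was at -2.30 with TMM and at -2.32 with total reads. Single pools moved the value further, to -0.72 without replicate 1 of the APCs and to -3.83 without replicate 2. Those fits leave 1 APC pool, so that group has no spread of its own. Without heifer replicate 3 the value was -2.72 (adjusted p-value 0.211, a call). With the replicate number as a block the log2 fold change was -2.72 with an adjusted limma p-value of 0.000147, a call. Heifer replicate 3, whose number no APC pool shares, adds nothing to that estimate. Few pairs are left to measure the spread of miR-122, so this p-value leans on that of the other miRNAs. Same-numbered APC and heifer pools correlated at 0.188 and -0.035. The 29 calls became 3 without heifer replicate 1 and 46 without heifer replicate 3.

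TCs at weeks 5 and 6 differed from heifers by a log2 fold change of -1.14 (SE 0.44, 95% interval -2.19 to -0.08). The adjusted limma p-value was 0.252, just past the limit, so miR-122 was not called, and 6.96% of 230 miRNAs were. The groups overlapped, and the exact permutation p-value was 0.2, where 3 pools against 3 cannot go under 0.1. With the replicate number as a block, a pairing inferred from the values, the log2 fold change was again -1.14. The adjusted p-value was then 0.104, a call, and 29 miRNAs were called in place of 16. miR-122 was also called without heifer replicate 3 (-1.62, adjusted p-value 0.159), and at -0.70 without heifer replicate 1 it was not. The 16 calls became 0 without replicate 1 or 3 of the TCs or replicate 1 or 2 of the heifers, 46 without replicate 2 of the TCs and 29 without heifer replicate 3.

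The largest contrast to heifers relative to its error among the TCs was that at weeks 9 and 10, with a log2 fold change of -1.66 (SE 0.45, 95% interval -2.70 to -0.61). All 3 TC pools lay below all 3 heifer pools, as the groups of 15.4% of the 227 miRNAs did in either direction, and the exact permutation p-value was 0.1, the smallest possible. The adjusted limma p-value was 0.336 and miR-122 was not called. limma called 0% of the miRNAs here although 24 had an unadjusted p-value under 0.05, the quasi-likelihood test of edgeR called 0 and DESeq2 called 14. miR-122 was among the miRNAs called by DESeq2 (log2 fold change -1.81, adjusted p-value 0.0296). It was called as well with the replicate number as a block (-1.66, adjusted p-value 0.177), without replicate 2 of the TCs (-1.56, 0.22) and without heifer replicate 3 (-2.13, 0.0629), where 7, 25 and 2 miRNAs were called.

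**Figure D2:**
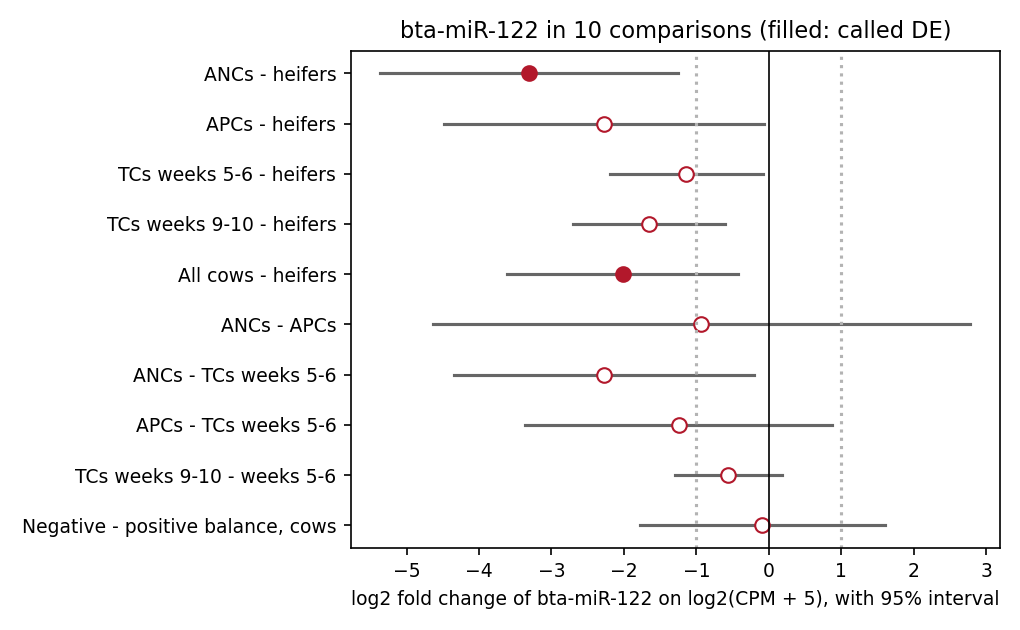
Log2 fold change of bta-miR-122 in the 10 comparisons, first group minus second, with 95% intervals from limma. Filled points passed the DE thresholds, which were ANCs against heifers (-3.31) and all postpartum cows against heifers (-2.01); every comparison with heifers lies below 0.

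Over all 10 cow pools, miR-122 was lower than in the heifers. Cows ranged from 328.8 to 5858 CPM with a mean of 3385 ± 1881 CPM (SD, n = 10), and 8 of the 10 pools lay below the lowest heifer pool at 5369 CPM. The pools above it were replicate 2 of the TCs at weeks 5 and 6 and replicate 2 of the APCs. The log2 fold change was -2.01 (SE 0.75, 95% interval -3.61 to -0.42), with an adjusted limma p-value of 0.219, a call. The exact permutation p-value was 0.021, and 0.21 after Benjamini-Hochberg adjustment over the 10 comparisons of miR-122. Both tests treat the 10 cow pools as independent, although they mix several groups and the TC pools of both times may share animals. In this comparison 6.28% of 239 miRNAs were called and 5.02% were called lower, and miR-122 showed the second largest decrease. The call was lost in 7 of the 13 fits that left out 1 pool, among them those without heifer replicate 1 (log2 fold change -1.60, adjusted p-value 0.635) and without heifer replicate 2 (-1.90, adjusted p-value 0.769). The 15 calls over all miRNAs became 7 and 0 in those fits and 24 without heifer replicate 3, and they were 8 without TC weeks 5 and 6 replicate 1 or ANC replicate 2.

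The direction held without the low pools of the ANCs and APCs. These pools were left out because of their miR-122 values, which narrows the spread. The p-values of that fit are therefore not independent evidence. In a fit added after the values were seen, without replicate 1 of both groups, the log2 fold change was -1.35 (SE 0.35), the adjusted p-value 0.114 and the exact permutation p-value 0.0364. A fit of the TCs of both times alone, 6 pools against 3, was likewise not planned. There the log2 fold change was -1.36 (SE 0.37), and miR-122 was 1 of the 2.98% of 235 miRNAs called (adjusted p-value 0.175). The exact permutation p-value was 0.0476, and neither permutation p-value of these fits was adjusted over comparisons. Both TC groups were drawn from the same set of transient cows and may share animals, in which case the 6 pools are not independent. On the scale of this comparison the TC pools ranged from 2779 to 5661 CPM around a median of 4422 CPM, and the highest of them was just above the lowest heifer pool at 5621 CPM.

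The day on which the RNA was measured differed between replicates, replicate 1 of each group on 1 day and the others on the next, and it is not listed for replicate 2 of the APCs. On the first day, 4 cow pools were at 328.8 to 4212 CPM and the heifer pool at 17623 CPM. On the second day, 5 cow pools were at 2876 to 5712 CPM and the heifers at 5369 and 11851 CPM. The mean log2 level of the cows was thus lower on both days, by -3.82 and -1.03. A day with 1 heifer pool allows no test of its own.

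**Figure D3:**
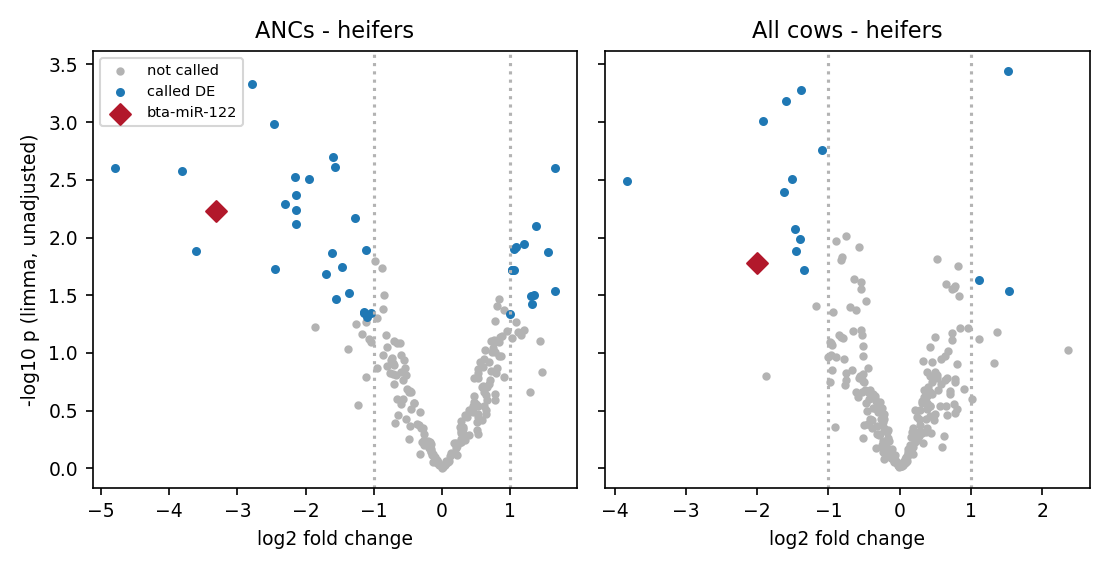
Log2 fold change and unadjusted limma p-value (as −log10) of all miRNAs tested in ANCs against heifers and in all postpartum cows against heifers, with bta-miR-122 marked. miR-122 lies among the largest decreases in both panels (-3.31 and -2.01), and was 13th and 18th by its p-value.

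Other marker miRNAs moved with the cow pools as well. Leukocyte names summed to 4868 to 6077 CPM in heifers and to 745 to 4820 CPM in cows, and 3 of the 5 leukocyte miRNAs tested were called lower in all cows, all 5 of them in ANCs, beside 5.02% and 12.1% of all miRNAs tested. The remaining listed arm, miR-142-3p, did not pass the filter of these comparisons. It was low and overlapped, at 9.9 to 21.6 CPM in heifers and 5.3 to 46.9 CPM in cows. Muscle names stood at 566.7 to 975.7 CPM in heifers and 223.7 to 482.1 CPM in cows, with 2 of 3 called lower in all cows and 1 of 3 in ANCs. Epithelial names were at 16385 to 26019 CPM in heifers and 5150 to 32526 CPM in cows, with 2 of 7 called lower in all cows and 4 of 7 in ANCs. The platelet and endothelial name, miR-126, overlapped between heifers (1059 to 1764 CPM) and cows (931 to 2715 CPM), and its 2 arms had a median log2 fold change of 0.17. Erythroid names overlapped too, at 1717 to 3959 CPM in heifers and 131 to 10962 CPM in cows, but in ANCs both of those tested were called lower (median log2 fold change -3.13). miR-451, the defining erythroid miRNA, was at 0 reads in replicate 1 of the ANCs, the pool with the lowest miR-122. In replicate 1 of the APCs, the pool with the next lowest miR-122, it was at 768.5 CPM, its highest level in any pool. The part of these cell types in the miR-122 result was not tested.

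Between the states of energy balance, no difference of miR-122 passed the thresholds. In ANCs against APCs the log2 fold change was -0.93 (SE 1.44, 95% interval -4.63 to 2.78), and the exact permutation p-value was 0.667, where 2 pools against 2 cannot go under 0.333. The direction turned without replicate 1 of the ANCs (0.66) and without replicate 2 of the APCs (0.63). Without replicate 2 of the ANCs the log2 fold change was -2.52, and without replicate 1 of the APCs -2.49. Each of these fits leaves 1 pool in a group, which then has no spread of its own, so no call is read from them. Between pools of the same number, ANCs were lower both times, at 328.8 against 631.3 CPM in replicate 1 and 2926 against 5858 CPM in replicate 2. With the replicate number as a block the log2 fold change was again -0.93, with an unadjusted limma p-value of 0.0221 and an adjusted one of 0.196, and it missed the fold threshold. With 2 pairs of pools, these p-values lean on the spread of the other miRNAs. limma called 0% of 207 miRNAs, with 17 at an unadjusted p-value under 0.05, and edgeR called 0, DESeq2 6 and limma with the block 28.

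ANCs were lower than TCs at weeks 5 and 6 in all their pools, with a log2 fold change of -2.28 (SE 0.87, 95% interval -4.35 to -0.21) and an adjusted limma p-value of 0.55. The exact permutation p-value was 0.2, the smallest possible, and 27.1% of 225 miRNAs had groups that did not overlap. Without replicate 2 of the ANCs the log2 fold change was -3.92, and without replicate 1 it was -0.62, each with 1 ANC pool left. APCs against TCs at weeks 5 and 6 gave -1.24 (SE 0.88, 95% interval -3.36 to 0.87, adjusted p-value 0.993). This turned to 0.36 without replicate 1 of the APCs and was -2.85 without replicate 2, again with 1 APC pool left. limma called 0% of 225 miRNAs in each of these comparisons, with 18 and 6 at an unadjusted p-value under 0.05, edgeR called 0 and 0, and DESeq2 0 and 1.

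In the TCs, the change from weeks 5 and 6 to weeks 9 and 10 was -0.56 (SE 0.33, 95% interval -1.30 to 0.18) on the log2 scale. In this fit an increase by more than 1.13 times lay outside the interval. The adjusted limma p-value was 0.573 and the exact permutation p-value 0.2. The interval treats the pools as independent, although the TC groups may share animals, and with total reads the change was -0.32. Energy balance and week after calving differ together between the TC groups and cannot be told apart. Taking the 5 pools in negative balance (TCs at weeks 5 and 6 and ANCs) against the 5 in positive balance (TCs at weeks 9 and 10 and APCs), the log2 fold change was -0.09 (SE 0.78, 95% interval -1.78 to 1.61), with an exact permutation p-value of 0.921, and it was 0.10 with edgeR and with DESeq2. limma called 0% of 224 and of 221 miRNAs in these comparisons, with 12 and 3 at an unadjusted p-value under 0.05, edgeR called 0 and 0, and DESeq2 1 and 2. In ANCs against APCs and in negative against positive balance, the intervals include changes of several fold in either direction. All pools in negative balance were from weeks 5 and 6, and the TC pools in positive balance from weeks 9 and 10. The comparison of negative with positive balance therefore mixes balance with week.

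The other 5 liver names were then set beside miR-122 in the cow against heifer comparison. In mammals miR-194 is encoded in clusters with miR-192 and with miR-215, and miR-192 and miR-215 have closely related sequences, so that reads may be shared between them. miR-192 was at 15686, 14979 and 5744 CPM in heifers and at 1812 to 13595 CPM in cows, with a log2 fold change of -0.76 (adjusted limma p-value 0.49). miR-194 changed by -0.85, miR-215 by -0.23, miR-148a by -0.28 and miR-101 by 0.17. Beside 6.28% of all miRNAs tested, 0 of the 5 were called by limma, with 0 at an unadjusted p-value under 0.05. Their median was -0.28, against -0.03 over all miRNAs tested. In the pairwise comparisons with heifers, 1 of the 5 was called, namely miR-194 in APCs (log2 fold change -1.48, SE 0.53, adjusted p-value 0.229). Over all miRNAs tested, 12.4% were called in APCs, 18.6% in ANCs, 6.96% in TCs at weeks 5 and 6 and 0% in TCs at weeks 9 and 10.

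Within a pool, the ratio of 2 miRNAs does not depend on how the libraries were scaled. The following ratios were chosen after the values were seen and are a description. The level of miR-122 over the sum of the other 5 liver names was 0.237, 0.288 and 0.423 in the heifers, and it ranged from 0.017 to 0.186 with a median of 0.118 in the cows, so the groups did not overlap. Against miR-215 alone, the ratio was 3.16 to 4.28 in heifers and 0.300 to 2.5 in cows, again without overlap. Against miR-192 the ranges met, with 0.791 to 1.12 in heifers and 0.111 to 0.929 in cows, and against miR-194 those of the cows (0.585 to 8.35) took in those of the heifers (4.74 to 7.35). miR-148a (0.404 to 0.970 in heifers, 0.025 to 0.395 in cows) and miR-101 (5.201 to 13.3 and 0.191 to 4.77) gave no overlap. Against the leukocyte names they overlapped widely, at 0.943 to 3.62 in heifers and 0.294 to 2.66 in cows, so that miR-122 was not set apart from that list. The ranges overlapped as well against the erythroid names (3.13 to 5.49 in heifers, 0.071 to 6.07 in cows), the epithelial names (0.328 to 1.07 and 0.064 to 0.716), the muscle names (5.503 to 26.2 and 1.08 to 19.3) and the follicular names (0.348 to 2.37 and 0.027 to 1.04). Against miR-126 the ratio was 5.07 to 9.99 in heifers and 0.22 to 4.77 in cows, again without overlap, so the separation was not particular to the liver names. In miR-122 itself, 8 of the 10 cow pools already lay below all heifer pools. The share of all miRNAs that would separate the groups as a denominator was not computed.

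**Figure D4:**
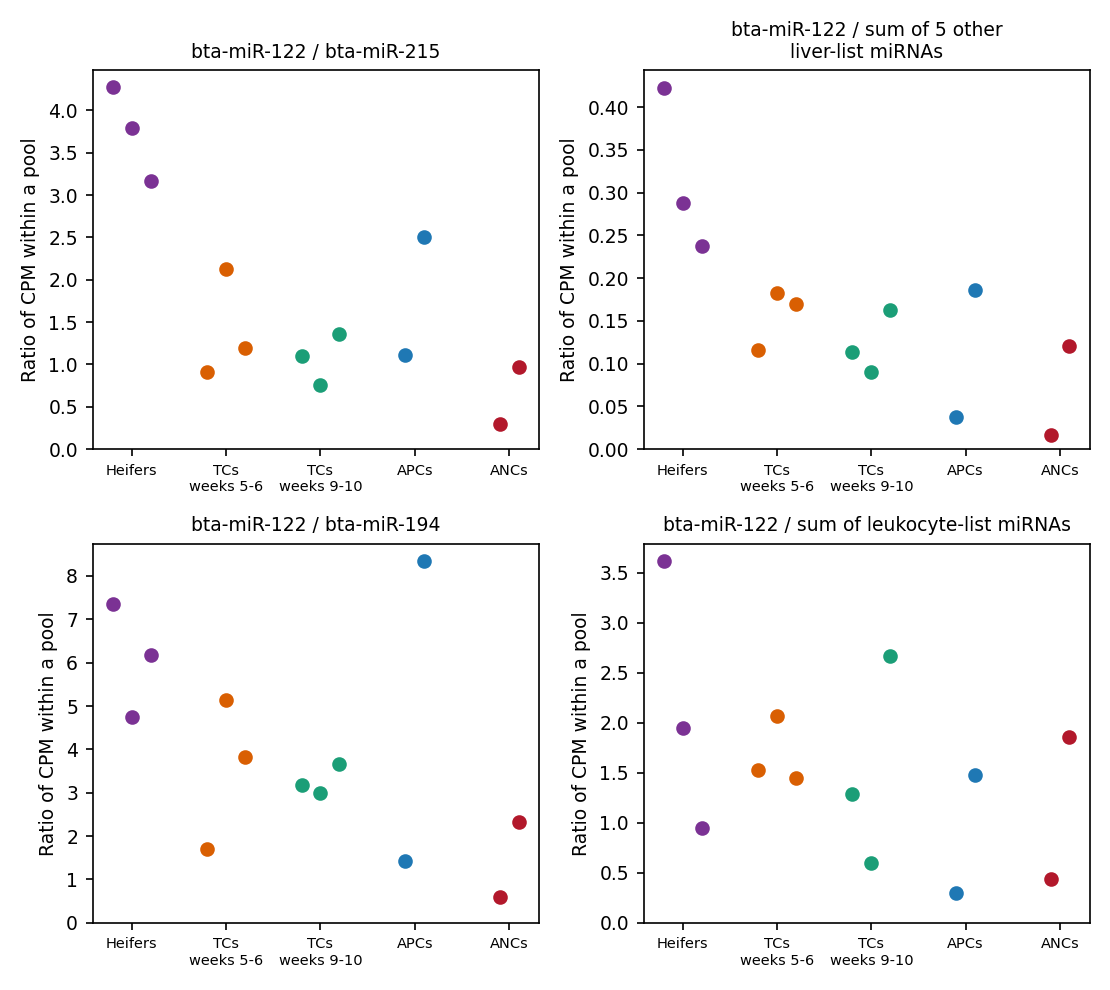
Ratio of bta-miR-122 to bta-miR-215, to the sum of the other 5 liver names, to bta-miR-194 and to the sum of the leukocyte names in each pool, on linear axes from 0, with 1 point per pool. The heifers lie above all cow pools in the first pair (3.16 to 4.28 against 0.300 to 2.5, and 0.237 to 0.423 against 0.017 to 0.186), and the groups overlap in the second pair.

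The miRNAs most like miR-122 across the pools were found by the Pearson correlation of log2(CPM + 5) over the 13 pools, among the 247 miRNAs that passed the filter. They were bta-miR-192 (r = 0.863, rho = 0.621), bta-miR-142-5p, a miRNA of blood cells (r = 0.837, rho = 0.709), bta-miR-147 (r = 0.817, rho = 0.824), bta-miR-205, an epithelial miRNA (r = 0.811, rho = 0.637), and bta-miR-1388-5p (r = 0.803, rho = 0.676). These are descriptions over pools that share their scaling and their group differences, and miR-147 and miR-1388-5p are low, at 36.6 and 58.4 CPM on average. Without the 2 pools farthest from the median of miR-122, replicate 1 of the ANCs and of the APCs, the r of the 5 fell to 0.446 to 0.703, so the likeness rests in good part on those pools.

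After the group means were removed, the closest were miR-215 (r = 0.895) and miR-192 (r = 0.887), followed by miR-1388-5p (r = 0.818). The wide gaps within the ANCs and APCs weigh heavily here. Over the pools without replicate 1 of those groups, r was 0.136 for miR-215, 0.641 for miR-192 and 0.446 for miR-1388-5p. The likeness of miR-215 thus rests mostly on the low pools. miR-215 shows how the level and the group difference part, since it was low with miR-122 in replicate 1 of the ANCs (1097 CPM, against 3033 CPM in replicate 2) and of the APCs (569.5 against 2341 CPM). In heifers, however, miR-215 was at 4122, 3121 and 1698 CPM, within the 569.5 to 4613 CPM of the cows. The summed leukocyte names had an r of 0.762 with miR-122 over the pools and 0.483 within groups, the epithelial names 0.672 and 0.561, the erythroid names 0.302 and 0.169, and miR-126 0.08 and 0.343. The summed names of follicular somatic cells had an r of -0.527 and -0.581, so this sum tended to be higher in pools with less miR-122. The r of its single members over the pools ranged from -0.575 to 0.089, so not all of them followed the sum. For the sum, the r over the pools was -0.33 without replicate 1 of the ANCs and of the APCs. The highest follicular sum, 15434 CPM, was in heifer replicate 3.

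**Figure D5:**
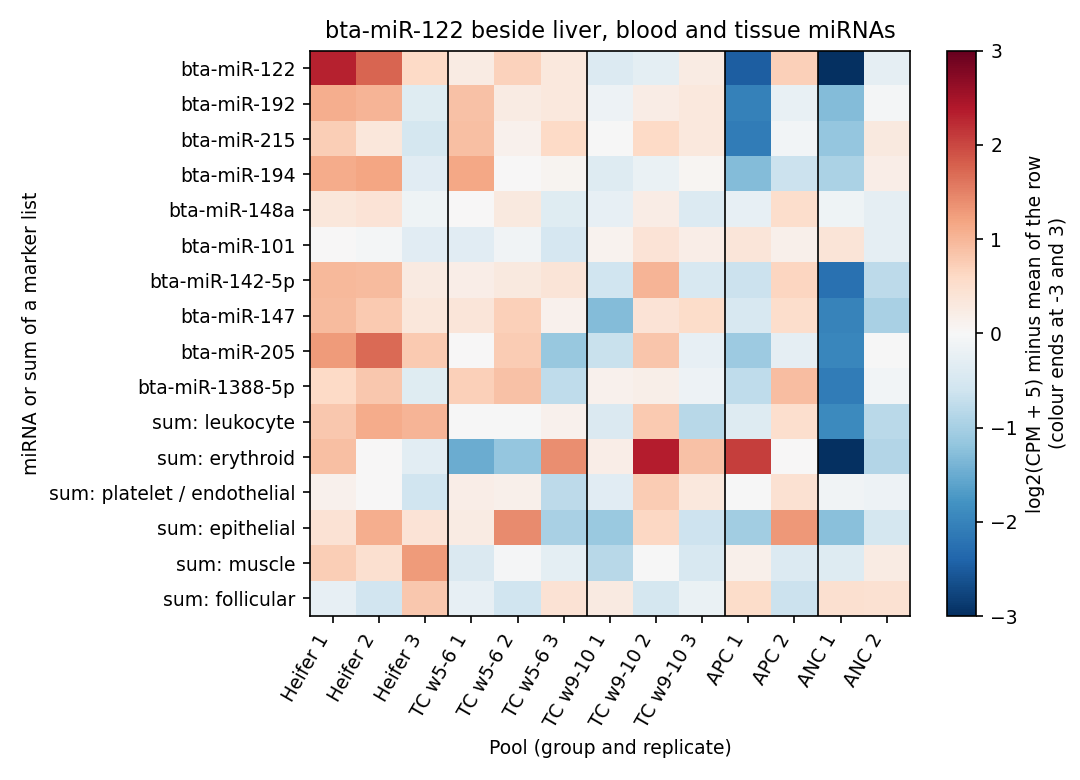
Heat map of log2(CPM + 5) minus the mean of each row for miR-122, the other liver names, the 5 miRNAs most like miR-122 and the summed marker lists, in the 13 pools. Colours end at -3 and 3; miR-122, miR-192 and miR-215 are low together in replicate 1 of the ANCs and of the APCs, and miR-122 is high in heifer replicates 1 and 2.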

How the data were processed

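The authors trimmed reads of QIAseq miRNA libraries with Cutadapt 1.11, mapped them to UMD3.1 with Bowtie2 2.2.2 (tools and build also in the submitters' processing notes), used miRBase for the annotation and applied TMM. The values they deposited are TMM-adjusted CPM, not logged. Libraries whose adjusted totals exceed those of plain CPM were recorded as a signal, although the authors made them in the same way. Totals per library were 822818.3 to 1251163.8. Whether molecular identifiers were counted is not given in the sources used here.

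Whole reads were recovered from the value steps (3681 of 3681 values whole within 0.1 read), which could be checked on low values in fewer than all libraries, since 6 of 13 held too few of them. Pairwise comparisons used TMM (edgeR 4.0.16) over the miRNAs listed for both groups, filterByExpr (minimum count 10, minimum total 15) and limma 3.58.1 with a mean-variance trend on log2(CPM + 5), with Benjamini-Hochberg adjustment over all miRNAs tested, in R 4.3.3. The DE thresholds follow the study's methods. Single values were compared with exact permutation tests. Scripts were tested on simulated data. Alternatives were the quasi-likelihood test of edgeR, DESeq2 1.42.0, other scalings, pseudocounts and filters, single-pool omissions, a replicate block, a day covariate and 1 fit of all groups.

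Named miRNAs were miR-122, the 5 most correlated with it, its neighbours in mean level, the liver list by member and other marker lists by count and sum. miR-215, miR-126, miR-451 and miR-449a are named beyond that as list members or because of their values. The members, lists and tests were chosen with earlier results of these data known. The replicate numbers come from the labels. Same-numbered pools of TCs at weeks 5 and 6 and of heifers deviated together from their group means (r = 0.216, 0.377 and 0.385). A replicate block is therefore given beside the main fit of that comparison, which took the pools as unpaired. The pairing was inferred from these values and not from the design, since cows and heifers are different animals.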

Additional observations from a re-analysis of the deposited data

How the results depend on the processing

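Leaving out 1 pool at a time, the log2 fold change of miR-122 went from -4.91 to -1.66 in ANCs, from -3.83 to -0.72 in APCs, from -1.62 to -0.70 in TCs at weeks 5 and 6, from -2.13 to -1.33 in TCs at weeks 9 and 10 and from -2.50 to -1.60 in all cows, each against heifers. It went from -2.52 to 0.66 in ANCs against APCs, from -3.92 to -0.62 and from -2.85 to 0.36 in ANCs and in APCs against TCs at weeks 5 and 6, from -0.78 to -0.38 between the TC times, and from -0.57 to 0.67 in negative against positive balance. Reversals were those without ANC replicate 1 (0.66) and APC replicate 2 (0.63) in ANCs against APCs, and without APC replicate 1 (0.36) in APCs against TCs. In negative against positive balance they were those without TC weeks 9 and 10 replicate 3 (0.14), ANC replicate 1 (0.67) and APC replicate 2 (0.20), with edgeR (0.10) and with DESeq2 (0.10).

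APCs against heifers became a call with total reads (-2.86), deposited values (-2.63), 5 groups in 1 fit (-2.43) and the replicate block (-2.72). TCs at weeks 5 and 6 became a call with edgeR (-1.28), DESeq2 (-1.21), total reads (-1.34), deposited values (-1.21) and the block (-1.14), and TCs at weeks 9 and 10 with DESeq2 (-1.81), total reads (-1.66) and the block (-1.66). Without heifer replicate 3, APCs (-2.72) and both TC groups (-1.62 and -2.13) also became calls, as did TCs at weeks 9 and 10 without their replicate 2 (-1.56). The cause was not tested. For the other pairs of groups, same-numbered pools correlated at -0.167 to 0.216. ANCs against APCs, at 0.216, matched the lowest value of TCs at weeks 5 and 6 against heifers. These values therefore do not clearly set paired groups apart from the others. A number also goes with the day of RNA measurement where that is listed. The block changed no other call of miR-122. It raised the calls in ANCs against heifers from 40 to 65, in TCs at weeks 9 and 10 from 0 to 7, in ANCs against APCs from 0 to 28 and in ANCs against TCs from 0 to 2. Counts also moved in APCs against heifers (29; 63 with total reads, 49 with deposited values) and in TCs at weeks 5 and 6 (16; 36 with DESeq2, 26 with total reads, 0 with the day as covariate). In TCs at weeks 9 and 10 they moved from 0 to 6 with total reads and 4 with 5 groups in 1 fit, in all cows from 15 to 7 with TCs only, and in negative against positive balance from 0 to 1 with 5 groups in 1 fit.
The lower calls were 26 of 40 in ANCs against heifers and 41 of 45 with deposited values, 7 of 29 and 49 of 63 with total reads in APCs, and 12 of 16 and 7 of 13 with DESeq2 size factors in TCs at weeks 5 and 6. The group means rest on 2 or 3 pools, which limits the precision more than counting does.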

Other observations

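Replicate 2 of the ANCs exceeded replicate 1 by 3.13 on the log2 scale in miR-122, and replicate 2 of the APCs exceeded replicate 1 by 3.20. At a threshold of 2 chosen after the values were seen, 1 other miRNA of the 247 that passed the filter was higher in replicate 2 of both groups. It was bta-miR-449a, a miRNA of multiciliated cells, at 0 and 26.8 CPM in the ANCs and 20.6 and 324.0 CPM in the APCs. The ANC values lie near the floor, since 3 reads stood at 20.1 CPM in replicate 2 of the ANCs.

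The difference of ANCs from APCs was set against that of TCs at weeks 5 and 6 from weeks 9 and 10, since both contrast negative with positive balance. For miR-122 these differed by -1.54 on the log2 scale (SE 1.33, adjusted limma p-value 0.528), within the error. The TC groups also differ in the week after calving, whereas ANCs and APCs were both sampled at weeks 5 and 6.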
